A study of Mus musculus with 18 samples.

Results

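The genes of iron uptake, storage and export were examined in mouse eosinophils cultured with apoptotic cells. The group held 7 genes out of the 54446 in the table, chosen by name: Tfrc, Slc11a1 and Slc11a2, which bring iron into the cell or move it out of its vesicles, Fth1 and Ftl1, which encode the 2 ferritin chains, Slc40a1, which encodes the iron exporter ferroportin, and Cp, which encodes the ferroxidase ceruloplasmin. The 7 were chosen with earlier results of these data known. All 7 were matched and all 7 passed the filter on low values in every comparison. The eosinophils came from the peritoneal cavity of Il5Tg mice (strain label C57BL/6), in which an Il5 transgene raises eosinophil numbers, and were re-purified on anti-Siglec-F beads ahead of RNA extraction. The apoptotic cells (ACs) were dexamethasone-killed thymocytes of wild-type mice, and all 18 libraries received them. The Type 1 experiment had a group with ACs alone and groups with ACs plus IFN-γ, plus E. coli, or plus IFN-γ followed by E. coli. The IL-4 experiment had a group with ACs alone and a group with ACs plus IL-4. Since ACs were always present, groups are named below by the stimulus, with "both" for IFN-γ followed by E. coli and "ACs" for ACs alone. Each of the 6 groups had 3 libraries, and eosinophils without ACs were not analysed here, so every change described is a change on top of ACs. Values are reads per gene divided by the library's size factor (normalized counts) from CEL-Seq2, a protocol that reads transcripts at their 3′ end.

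Library depth was between 779421 and 7782072 reads on genes. In the IL-4 experiment the third replicates were the shallowest libraries, with 849705 reads for IL-4 + ACs and 779421 for ACs, and 1 read there stands for 5.14 and 5.36 normalized counts. Of the 12 eosinophil markers, Siglecf ranged from 1514 to 3367 and Ccr3 from 2623 to 4934, while the granule gene Epx did not pass 25.7 in any library. The summed level of the 12 was 17701 to 19157 with ACs, 19474 to 20794 with E. coli, 10968 to 12493 with IFN-γ and 16389 to 18960 with both, and in the IL-4 experiment 22700 to 25443 with ACs and 25504 to 28366 with IL-4 + ACs. All 14 macrophage markers were also detected, and their summed level was 19971 to 25634 with ACs, 11105 to 13720 with E. coli, 32183 to 42569 with IFN-γ and 13261 to 14361 with both. In the IL-4 experiment that sum was 29320 to 43148 with ACs and 23237 to 38483 with IL-4 + ACs. The summed level of 8 erythroid markers, nearly all globin transcripts, was 2640 to 3623 with ACs, 5337 to 7827 with E. coli, 7396 to 11554 with IFN-γ and 2468 to 7371 with both. In the IL-4 experiment the erythroid sum was 607 to 1142 with ACs and 578 to 858 with IL-4 + ACs. Slc4a1, which encodes the main anion exchanger of red cells, was at 0 in every library, and Klf1 did not pass 0.78. Alas2, the first enzyme of heme synthesis in red cells, was at 9.76 to 12.2 with ACs, 21.1 to 26.2 with E. coli, 6.16 to 47.5 with IFN-γ and 18.5 to 25.7 with both, and did not pass 4.22 in the IL-4 experiment. The summed level of 7 neutrophil markers was 50.6 to 66.6 with ACs, 315 to 455 with E. coli, 149 to 201 with IFN-γ and 165 to 243 with both, most of it S100a8, while the granule genes Mpo and Elane were at 0 in the 3 stimulated groups. In the IL-4 experiment it was 75.1 to 99.7 with ACs and 46.3 to 67.2 with IL-4 + ACs. In the paper, flow cytometry of all samples after re-purification found nearly all cells to be eosinophils. The part of these other cell types in the results below was not tested.

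Cells take up transferrin-bound iron through the transferrin receptor, carry it out of endosomes, keep what is not used inside ferritin shells and release it through ferroportin. Iron regulatory proteins read the labile iron of the cell. When iron is scarce they bind stem-loops called iron-responsive elements, which blocks translation where the loop lies in the 5′ UTR and protects the transcript where it lies in the 3′ UTR. In phagocytes, bacterial products and IFN-γ are known to act on these genes, a withholding of iron from microbes that belongs to innate defence.

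The loops were searched for in the UTRs of the GENCODE M21 transcripts of GRCm38, since the regulatory proteins bind such loops. The pattern, set after the gene lists, was a bulged C, an upper stem of 5 pairs, the loop CAGTGN and at least 4 of 5 pairs in the lower stem. It was found in 17 of 22500 coding genes (0.0756%), and 4 of the 7 genes were among them. The pattern has the known form of iron-responsive elements and the 7 were chosen as iron genes, so these counts are a description with no test. The sites follow, 5′ to 3′, with the loop in capitals.
Slc40a1, 5′ UTR, chr1:45925466-45925492, minus strand: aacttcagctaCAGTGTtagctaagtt
Fth1, 5′ UTR, chr19:9982733-9982759, plus strand: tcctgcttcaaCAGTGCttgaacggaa
Ftl1, 5′ UTR, chr7:45459780-45459806, minus strand: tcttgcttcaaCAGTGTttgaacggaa
Tfrc, 3′ UTR, chr16:32631220-32631246, plus strand: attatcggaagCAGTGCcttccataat
Tfrc, 3′ UTR, chr16:32631599-32631625, plus strand: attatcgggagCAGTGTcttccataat
Tfrc, 3′ UTR, chr16:32631664-32631690, plus strand: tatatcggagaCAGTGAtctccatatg
Tfrc, 3′ UTR, chr16:32631711-32631737, plus strand: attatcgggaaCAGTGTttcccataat

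The storage genes and the exporter each held 1 such site in the 5′ UTR, and Tfrc held 4 in its 3′ UTR. Not every annotated transcript carried the site, which was present in 1 of 4 coding transcripts of Slc40a1, 4 of 5 of Fth1, 2 of 3 of Ftl1 and 1 of 3 of Tfrc. The pattern was not found in the UTRs of Slc11a1, Slc11a2 or Cp. It is strict and can miss known elements, such as the one in a 3′ UTR of Slc11a2, so nothing is drawn from its absence. In the RefSeq promoter windows of GRCm38.p6 (250 bases before to 50 after a start), 8 windows belonged to 5 of the 7 genes. None of the 8 held TTCNNNGAA (gamma-activated sequence, in 8.3% of 32851 windows), TGACNNNGC (antioxidant response element core, 12.4%) or CACGTG (E-box, 7.15%) on either strand, or CAGTGN on the transcribed strand of the first 50 bases (7.08%).

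The first question was how each gene stood in each condition. Positions are those of GRCm38, as annotated in GENCODE M21. Changes below are log2 changes of the normalized count + 1 from limma, relative to ACs of the same experiment, with the standard error, and calls past the threshold needed 1.5-fold or more and a p under 0.05 after Benjamini-Hochberg adjustment. The labels do not say whether replicates came from separate mice. The paper describes its experiments as biological replicates. For its heat plots of eosinophils with and without ACs it gives a different mouse per lane. The p-values measure the spread between these libraries, and the labels do not tell how much of it lies between mice. In bulk RNA, fewer cells of a type and less RNA per cell cannot be told apart.

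**Figure D1:**
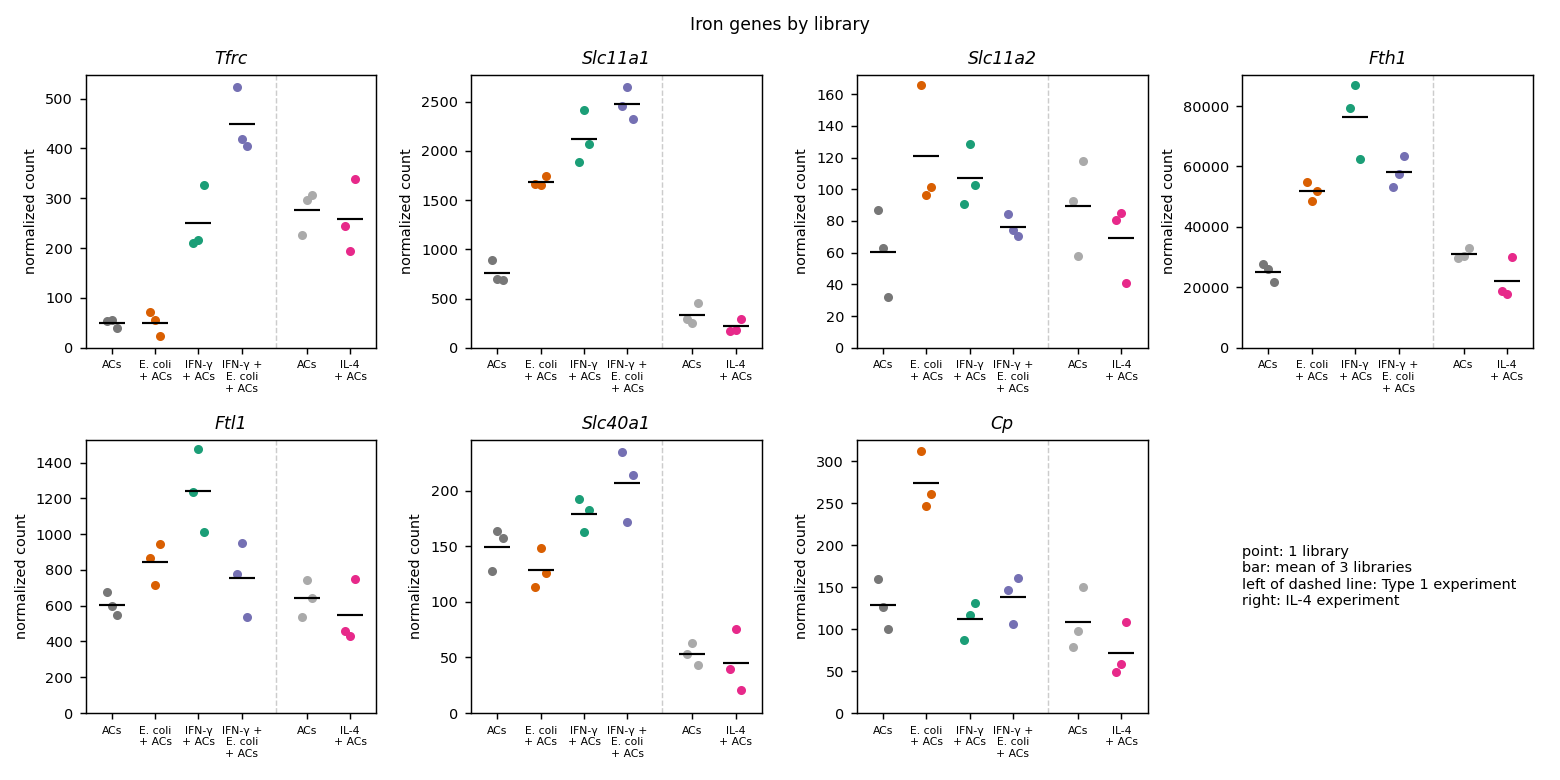
Normalized count of each of the 7 genes (y axis from 0) in each of the 18 libraries, by group, with 1 point per library and a bar at the mean of 3. Tfrc and Slc11a1 were highest with IFN-γ + E. coli + ACs, Fth1 and Ftl1 with IFN-γ + ACs, and Cp with E. coli + ACs.

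Tfrc (ENSMUSG00000022797.16, chr16:32608920-32632794) encodes the transferrin receptor, the main entry of iron into most cells. Its normalized counts were 54.5, 55.4 and 40.0 with ACs, 71.2, 55.6 and 23.8 with E. coli, 211, 215 and 326 with IFN-γ, and 523, 419 and 404 with both. The 6 libraries with IFN-γ lay above all 6 libraries without it, while the ranges with and without E. coli in the absence of IFN-γ overlapped. Tfrc rose 4.90-fold with IFN-γ (log2 2.29 ± 0.29, limma adjusted p = 7.83e-06) and 8.86-fold with both stimuli (log2 3.15 ± 0.29, limma adjusted p = 8.67e-08). With E. coli alone the change was -0.11 ± 0.29, with a 95% confidence interval from -0.73 to 0.50. It was the member with the largest change in both comparisons with IFN-γ.

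Slc11a1 (ENSMUSG00000026177.11, chr1:74375195-74386062, plus strand) encodes the metal transporter of phagosomes known as NRAMP1, which moves metal out of the compartment that holds engulfed microbes. Its counts were 892, 696 and 686 with ACs, 1663, 1649 and 1743 with E. coli, 1892, 2420 and 2066 with IFN-γ and 2460, 2652 and 2323 with both. Every stimulated library of the Type 1 experiment stood above every ACs library. The rise was 2.24-fold with E. coli (log2 1.16 ± 0.12, limma adjusted p = 1.93e-06), 2.81-fold with IFN-γ (log2 1.49 ± 0.12, limma adjusted p = 2.26e-08) and 3.29-fold with both (log2 1.72 ± 0.12, limma adjusted p = 2.21e-09). Among the 3 stimulated means the neighbours E. coli and IFN-γ did not overlap, and the ranges of IFN-γ and of both stimuli did.

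Slc11a2 (ENSMUSG00000023030.16, chr15:100387898-100425072) encodes DMT1, which takes ferrous iron across the endosomal membrane after transferrin uptake. Counts were 87.0, 62.9 and 31.8 with ACs, 166, 96.5 and 101 with E. coli, 91.0, 128 and 103 with IFN-γ, and 84.1, 74.5 and 70.4 with both. The single stimuli lay above ACs without overlap and the combination lay within the ACs range. Slc11a2 rose 2.08-fold with E. coli (log2 1.06 ± 0.29, limma adjusted p = 0.0211) and 1.88-fold with IFN-γ (log2 0.91 ± 0.29, limma adjusted p = 0.0263). These calls rest on the low value of ACs replicate 3: without it the changes were 0.66 (limma adjusted p = 0.144) and 0.52 (0.186). The E. coli call was also lost without E. coli + ACs replicate 1 (0.81, limma adjusted p = 0.134) and the IFN-γ call without IFN-γ + ACs replicate 2 (0.78, 0.102).

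Fth1 (ENSMUSG00000024661.6, chr19:9980598-9985098) encodes the ferritin heavy chain, which oxidizes ferrous iron as it enters the shell. It was among the most abundant transcripts of these cells, ranking from 3 to 23 of all genes by library. Its counts were 27704, 26023 and 21690 with ACs, 54834, 48736 and 52003 with E. coli, 79374, 86985 and 62394 with IFN-γ, and 53363, 57513 and 63389 with both. The stimulated libraries did not overlap with ACs, and the combination overlapped with each single stimulus. The rise was 2.07-fold with E. coli (log2 1.05 ± 0.13, limma adjusted p = 1.72e-05), 3.02-fold with IFN-γ (log2 1.60 ± 0.13, limma adjusted p = 2.78e-08) and 2.32-fold with both (log2 1.21 ± 0.13, limma adjusted p = 7.07e-07). The ferritin transcripts together made up 0.657% ± 0.070 (SD, n = 3) of the counted reads with ACs, 1.26% ± 0.068 with E. coli, 1.68% ± 0.25 with IFN-γ and 1.26% ± 0.10 with both. The Ftl1 part of this share is uncertain, as described below.

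Ftl1 (ENSMUSG00000050708.16, chr7:45457944-45459884) encodes the ferritin light chain, which helps form the mineral core. Counts were 674, 596 and 546 with ACs, 866, 717 and 943 with E. coli, 1236, 1475 and 1014 with IFN-γ, and 775, 953 and 539 with both. Only IFN-γ + ACs passed the threshold, at 2.03-fold (log2 1.02 ± 0.18, limma adjusted p = 0.000247). With E. coli the libraries lay above ACs without overlap, but the change of 0.47 ± 0.18 did not pass (limma adjusted p = 0.0922). With both stimuli it was 0.29 ± 0.18 (limma adjusted p = 0.218). The last 300 bases of Ftl1 were identical to the annotated copy Ftl1-ps1 at 297 positions (99.0%), and the copy itself was counted at means of 71.2, 96.1, 162 and 105 in these 4 groups, so reads may have been split or dropped between the 2 rows and Ftl1 levels are uncertain. The other named ferritin copies matched no more than 45.0% of the last 300 bases of Ftl1 or Fth1. These copies are only 358 to 552 bases long, and bases missing from a copy count as mismatches. The share therefore does not tell how alike the parts they have in common are.

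Slc40a1 (ENSMUSG00000025993.10, chr1:45908068-45926523) encodes ferroportin, the route by which cells release iron and the target of hepcidin. Its counts were 128, 164 and 157 with ACs, 113, 149 and 126 with E. coli, 193, 163 and 183 with IFN-γ, and 235, 172 and 214 with both. The order of the means was E. coli, ACs, IFN-γ and both, and each neighbouring pair of groups overlapped. No change against ACs passed the threshold: it was -0.21 ± 0.17 with E. coli, 0.26 ± 0.17 with IFN-γ and 0.46 ± 0.17 with both, the last at a limma adjusted p of 0.0409 but only 1.38-fold.

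Cp (ENSMUSG00000003617.16, chr3:19957054-20009145) encodes ceruloplasmin, the copper enzyme that oxidizes iron as ferroportin releases it. Its counts were 160, 126 and 99.5 with ACs, 312, 247 and 261 with E. coli, 87.1, 117 and 131 with IFN-γ, and 147, 106 and 161 with both. The 3 E. coli + ACs libraries stood above all other libraries, and the other 3 groups overlapped. Cp rose 2.15-fold with E. coli (log2 1.10 ± 0.21, limma adjusted p = 0.00131), while the change was -0.19 ± 0.21 with IFN-γ and 0.11 ± 0.21 with both. Cp shares 108 exon bases with Hps3 on the other strand, and whether strand was used in counting is not given in the sources used here. Hps3 itself had means of 236 with ACs, 164 with E. coli, 155 with IFN-γ and 185 with both.

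**Figure D2:**
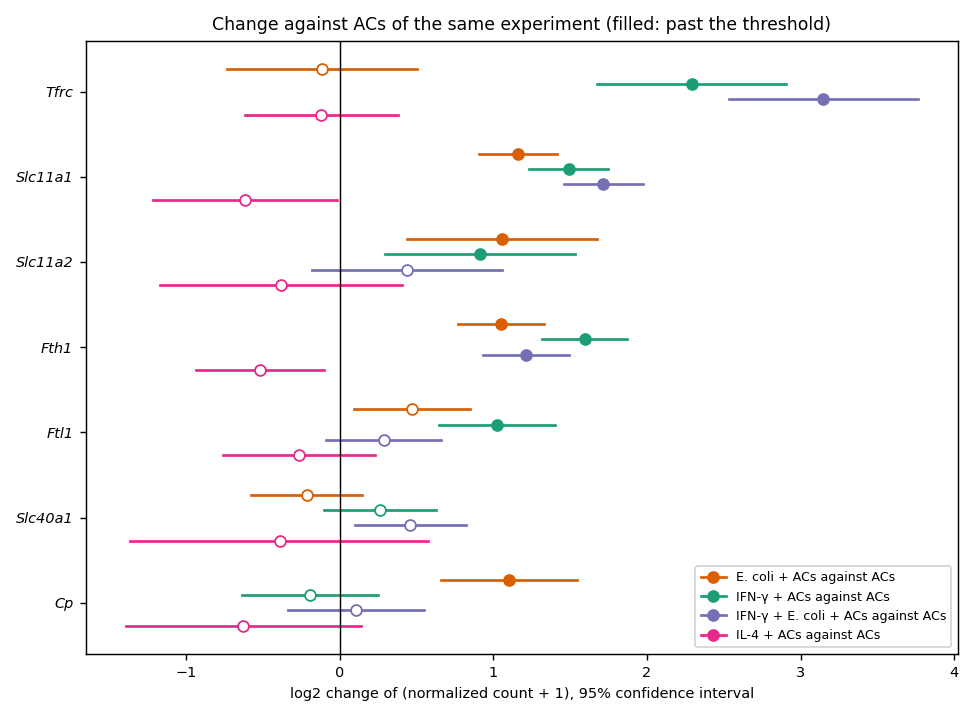
Log2 change of each gene against ACs of the same experiment (x axis), with 95% confidence intervals and 1 colour per stimulus. Filled points passed the threshold, as 4 genes did with E. coli, 5 with IFN-γ, 3 with both and 0 with IL-4.

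Counted over the group, 4 of 7 genes passed the threshold with E. coli, all of them higher (Fth1, Slc11a1, Slc11a2 and Cp), where 5.05% of all 10166 genes tested were higher. With IFN-γ it was 5 of 7, all higher (Tfrc, Slc11a1, Slc11a2, Fth1 and Ftl1), against 11.4% of all genes. With both stimuli it was 3 of 7, all higher (Tfrc, Slc11a1 and Fth1), against 14.7%. The median change of the 7 was 1.05, 1.02 and 0.46 in that order, where the median of all genes tested was 0.00, 0.00 and -0.05. The stimulated libraries lay above all ACs libraries for 5 genes with E. coli (19.9% of all genes), 5 with IFN-γ (22.6%) and 4 with both (23.9%). Since the 3 comparisons share their ACs libraries, they are not independent of each other. The 7 genes were also chosen with earlier results of these data known. The shares of all genes beside these counts are therefore a description with no test.

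Beside these rises, the summed macrophage markers were lower than with ACs in every library with E. coli or with both stimuli, and higher in every library with IFN-γ alone. Not every macrophage marker followed the sum. Adgre1 (1698 to 1874 with ACs) was above ACs with E. coli (2323 to 2402) and with both (2717 to 3140), and so was Spic. Marco and Mertk were above ACs with both, and Vsig4 and Mrc1 were below ACs with IFN-γ. The summed erythroid markers were above ACs without overlap with E. coli and with IFN-γ, the conditions where Slc11a2 rose as well, and overlapped with ACs when both were given. The summed eosinophil markers were below ACs without overlap with IFN-γ, where 5 of the 7 genes rose, above ACs without overlap with E. coli, and overlapped with ACs with both. Single eosinophil markers went both ways. Siglecf (3169 to 3367 with ACs) was below ACs with E. coli (2508 to 2817) and with both (1728 to 2020). Il5ra and Ear2 were below ACs in these groups too, while Ccr3, Ear6 and Gata1 were above. The summed neutrophil markers were above ACs without overlap in the 3 stimulated groups. The part of these cell types in the rise of Tfrc, Fth1, Ftl1, Slc11a1, Slc11a2 and Cp was not tested.

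The second question was what each stimulus added to the other. Adding E. coli to IFN-γ changed 2 of the 7 genes, against 14.6% of all genes in either direction. The ranges were apart for 3 genes (Ftl1, Tfrc and Slc11a2), against 29.6% of all genes. Ftl1 fell 1.67-fold from its IFN-γ level (log2 -0.74 ± 0.18, limma adjusted p = 0.00654), without overlap. Tfrc rose 1.81-fold (log2 0.86 ± 0.29, limma adjusted p = 0.0475), also without overlap. The Tfrc call lies at the threshold and was lost in 4 of the alternatives that kept all libraries and when most single libraries were left out, and the Ftl1 change came to -0.51, under the fold threshold, without IFN-γ + E. coli + ACs replicate 3. Fth1 changed by -0.38 ± 0.13 (limma adjusted p = 0.0491), which is under the fold threshold.

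Adding IFN-γ to E. coli changed 3 of 7 genes, where 19.4% of all genes changed in either direction. Tfrc rose 9.59-fold (log2 3.26 ± 0.29, limma adjusted p = 1.44e-07) and Slc40a1 rose 1.59-fold (log2 0.67 ± 0.17, limma adjusted p = 0.00762). Cp fell to 0.502 of its level with E. coli alone (log2 -0.99 ± 0.21, limma adjusted p = 0.00196). The ranges were apart for these 3 genes and for Slc11a1 and Slc11a2, 5 of 7 against 39.3% of all genes. Slc40a1 stood just above the fold threshold, and its change was 0.58 without E. coli + ACs replicate 1 and 0.58 without IFN-γ + E. coli + ACs replicate 1, under that threshold both times. Slc11a1 was 0.56 ± 0.12 higher (limma adjusted p = 0.00258), short of the fold.

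The interaction asks whether the change with both stimuli differs from the sum of the single changes on the log2 scale. It passed the threshold for 4 of 7 genes, all below the sum, where 4.28% of all genes were below. For Fth1 the single changes add to 2.65 and the measured change was 1.21, a difference of -1.43 ± 0.19 (limma adjusted p = 8.03e-05). For Slc11a1 the sum was 2.65 and the measured change 1.72, a difference of -0.94 ± 0.17 (limma adjusted p = 0.00233). For Ftl1 the difference was -1.21 ± 0.25 (limma adjusted p = 0.00605) and for Slc11a2 -1.53 ± 0.42 (limma adjusted p = 0.0294). These are the 2 divalent metal carriers and both ferritin chains. With all 18 libraries in 1 fit the differences for Slc11a1 (limma adjusted p = 0.0541) and Slc11a2 (0.0714) were lost. The Slc11a2 difference was lost without ACs replicate 3 (-1.14, limma adjusted p = 0.0767), without E. coli + ACs replicate 1 (-1.29, 0.102) and without IFN-γ + ACs replicate 2 (-1.40, 0.0806). The difference for Tfrc had the other sign, 0.97 ± 0.42, and did not pass (limma adjusted p = 0.171), nor did Cp at -0.80 ± 0.30 (0.111) and Slc40a1 at 0.41 ± 0.24 (0.341).

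**Figure D3:**
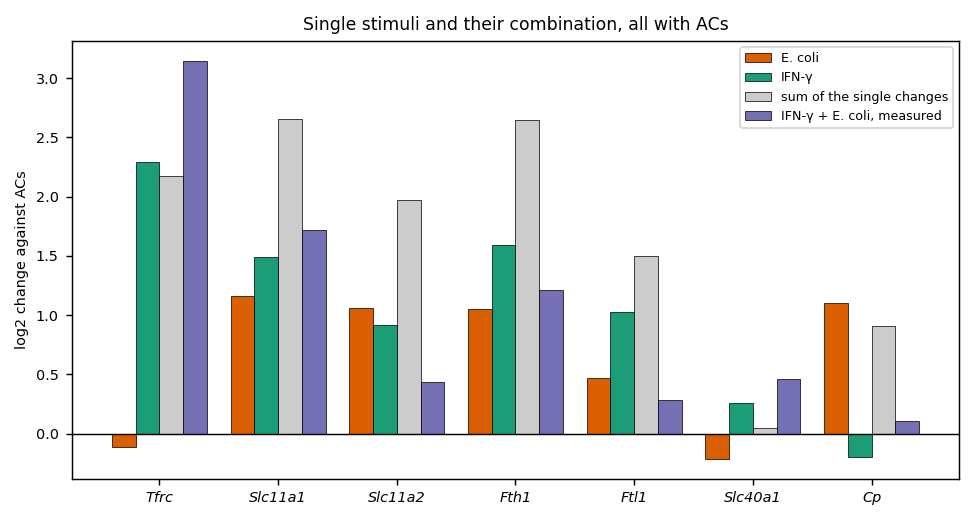
Log2 change against ACs (y axis) with E. coli, with IFN-γ, the sum of both single changes, and the measured change with IFN-γ + E. coli, for each gene. The measured bar is below the sum for Fth1, Ftl1, Slc11a1, Slc11a2 and Cp and above it for Tfrc and Slc40a1, and the difference passed the threshold for the first 4.

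The third question was whether IL-4, the Type 2 stimulus, moved these genes. With IL-4 + ACs 0 of 7 passed the threshold in limma, where 1.09% of all 10669 genes did, and edgeR and DESeq2 on the recovered reads also gave 0. With array weights, which give noisy libraries less say, 3 passed, Fth1 (limma adjusted p = 0.00014), Slc11a1 (0.00259) and Cp (0.0381). At an unadjusted p under 0.05 there were 2, Fth1 and Slc11a1. The ranges of the 2 groups overlapped for all 7 genes, where 17.3% of all genes had them apart. All 7 changes were below 0, with a median of -0.39 against -0.01 for all genes tested, though the sign turned for Slc11a2 without both shallow libraries (0.18), for Slc40a1 without IL-4 + ACs replicate 3 (0.07) and for Tfrc without IL-4 + ACs replicate 2 (0.07).

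Fth1 counts were 29580, 30476 and 33005 with ACs and 18857, 17871 and 30022 with IL-4 + ACs. The 2 deep IL-4 libraries lay below all ACs libraries and the shallow replicate 3 lay among them. The change was -0.52 ± 0.19 (limma adjusted p = 0.401). Without IL-4 + ACs replicate 3 it was -0.75 (limma adjusted p = 0.0314), and without both shallow libraries -0.71 (limma adjusted p = 0.00153).

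Slc11a1 counts were 296, 248 and 456 with ACs and 171, 183 and 293 with IL-4 + ACs, which overlap. The change was -0.62 ± 0.27 (limma adjusted p = 0.501), and -0.61 without both shallow libraries (limma adjusted p = 0.0215). In both groups the shallow library was the highest for this gene.

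Tfrc counts were 226, 297 and 306 with ACs and 243, 194 and 339 with IL-4 + ACs, a change of -0.12 ± 0.22 with a 95% confidence interval from -0.62 to 0.38. Ftl1 went from 641 ± 105 (SD, n = 3) to 546 ± 177 and Cp from 109 ± 37.1 to 71.7 ± 31.8. Slc11a2 went from 89.4 ± 30.3 to 69.0 ± 24.3 and Slc40a1 from 53.1 ± 10.1 to 45.5 ± 28.1. The last value is coarse, since Slc40a1 rests on 4 reads in IL-4 + ACs replicate 3.

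The IL-4 change differed from the change with IFN-γ + E. coli for 3 of 7 genes, all lower, where 10.8% of all genes were lower. The difference was -3.27 ± 0.42 for Tfrc (limma adjusted p = 7.78e-06), -2.33 ± 0.28 for Slc11a1 (2.86e-06) and -1.73 ± 0.23 for Fth1 (1.55e-05). Without IL-4 + ACs replicate 3, Ftl1 (-0.80, limma adjusted p = 0.0421) and Cp (-1.07, 0.0409) passed as well. Against the change with E. coli alone the difference was -0.004 ± 0.42 for Tfrc (limma adjusted p = 0.999), -1.78 ± 0.28 for Slc11a1 (0.000339), -1.57 ± 0.235 for Fth1 (0.000234) and -1.73 ± 0.40 for Cp (0.0119). Against IFN-γ alone it was -2.41 ± 0.42 for Tfrc (limma adjusted p = 0.000342), -2.11 ± 0.28 for Slc11a1 (1.46e-05), -2.11 ± 0.235 for Fth1 (1.63e-06) and -1.29 ± 0.30 for Ftl1 (0.00469). Each change was taken within its own experiment. The stimuli were given in different experiments, so the stimulus and the experiment cannot be told apart.

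The experiments also differed at their ACs baselines, in 3 of 7 genes where 19.2% of all genes differed. Tfrc was 5.45-fold higher in the ACs libraries of the IL-4 experiment (log2 2.45 ± 0.20, limma adjusted p = 4.21e-05). Slc40a1 was lower there, at 0.357 of the Type 1 level (log2 -1.49 ± 0.21, limma adjusted p = 0.000933), and so was Slc11a1, at 0.429 (log2 -1.22 ± 0.21, limma adjusted p = 0.00303). The ranges were apart for these 3 genes and for Fth1, 4 of 7 against 42.2% of all genes. The Tfrc level with ACs alone in the IL-4 experiment, 276 ± 43.4 (SD, n = 3), was near its level with IFN-γ in the Type 1 experiment, 251 ± 65.3. Fth1, Ftl1, Slc11a2 and Cp did not pass. No batch label beyond the experiment was given.

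**Figure D4:**
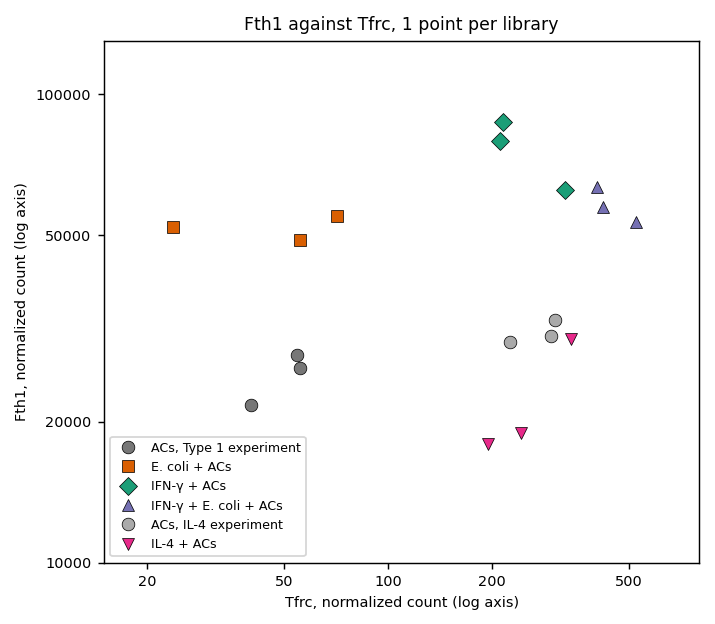
Normalized counts of Fth1 (y axis) against Tfrc (x axis), both on log axes, with 1 point per library and a symbol per group. E. coli + ACs libraries sit higher than ACs at a like Tfrc level, libraries with IFN-γ sit higher and to the right, and the IL-4 experiment sits at high Tfrc with Fth1 between 17871 and 33005.

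Set against each other within a library, the ratio of Fth1 to Tfrc normalized counts was 470 to 543 with ACs, 771 to 2190 with E. coli, 191 to 404 with IFN-γ and 102 to 157 with both. The ratio was above ACs in every E. coli + ACs library and below ACs in every library with IFN-γ. In the IL-4 experiment it was 103 to 131 with ACs and 77.5 to 91.9 with IL-4 + ACs, with the ranges apart. Ftl1 levels are uncertain, since reads may have been split or dropped between Ftl1 and Ftl1-ps1. Ratios to Ftl1 therefore do not give the true proportion of the ferritin transcripts. The ratio of Fth1 to Ftl1 was 39.8 to 43.7 with ACs and 55.2 to 68.0 with E. coli, which do not overlap. It was 59.0 to 64.2 with IFN-γ and 60.4 to 118 with both, again above every ACs library. For the IL-4 experiment the values were 40.9 to 55.3 with ACs and 40.0 to 41.5 with IL-4 + ACs, which overlap. The ratio of Slc11a1 to Slc11a2 was 10.2 to 21.6 with ACs, 10.0 to 17.2 with E. coli and 18.9 to 20.8 with IFN-γ, which overlap with ACs, and 29.3 to 35.6 with both stimuli, which does not.

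The genes whose pattern was most like that of a member were found by Pearson's r of log2 values over the 18 libraries, after each experiment's mean was subtracted, among 6907 genes. These libraries share groups, depth and size factors, so r is a description. Closest to Tfrc were Il13ra1 (r = 0.963) and Nub1 (0.961), and closest to Slc11a1 were Tgif1 (0.951) and Cxcl10 (0.949). For Fth1 they were Sqstm1 (0.947) and Esd (0.934), and for Ftl1 Gabarap (0.919) and the heme carrier gene Slc48a1 (0.917). For Cp they were Ctla2a (0.904) and Fpr1 (0.854), for Slc40a1 Usp32 (0.887) and Mex3c (0.821), and for Slc11a2 Rilpl2 (0.829) and Psmd10 (0.795).

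The other genes of iron and heme handling were taken from a list of 53, of which 52 were matched and 36 had enough reads in each comparison. The list, too, was chosen with earlier results of these data known. With E. coli 10 were higher and 6 lower (27.8% and 16.7% of those tested, against 5.05% and 5.25% of all genes). With IFN-γ 6 were higher and 4 lower (16.7% and 11.1%, against 11.4% and 9.96%). With both 9 were higher and 9 lower (25% each, against 14.7% and 17.2%). With IL-4 0 were higher and 1 was lower (2.78%, against 0.74% higher and 0.347% lower of all genes). In the Type 1 experiment 2 of the 36, Cd163 and Hamp, and in the IL-4 experiment 2, Slc39a8 and Tfr2, passed the filter on low values only through their highest group. Bmp6 passed it in the Type 1 experiment only through the groups with E. coli. The counts of lower genes include Cd163 with each Type 1 stimulus. The counts of higher genes include Hamp and Bmp6 with E. coli and with both, and Tfr2 with both. The mean of Tfr2 with ACs was 7.24, under the minimum of the filter. It was 10.2 with E. coli, 15.3 with IFN-γ and 17.9 with both. The calls of Cd163, Hamp, Bmp6 and Tfr2 are not read as tests, so the shares are a description. The median change of the 36 was 0.12, 0.15, -0.06 and -0.17 in that order.

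In the 8 tested genes of the heme list, 4 were higher with IFN-γ (Hmox1, Blvrb, Slc48a1 and Lrp1) and 1 was lower (Cd163), against 11.4% and 9.96% of all genes. The Cd163 call is not read as a test, since this gene passed the filter only through the ACs group. Hmox2, the constitutive heme oxygenase, at 0.15 (limma adjusted p = 0.481) and Blvra, the other biliverdin reductase, at -0.26 (0.61) did not pass. Hmox1, which encodes the inducible heme oxygenase that frees iron from heme, had counts of 2168, 1722 and 1576 with ACs and 10598, 12637 and 9577 with IFN-γ, a 6.01-fold rise (log2 2.59 ± 0.14, limma adjusted p = 8.92e-11). Blvrb, a biliverdin reductase, rose 4.46-fold (log2 2.16 ± 0.17, limma adjusted p = 2.03e-08), and Slc48a1, which carries heme out of the phagolysosome, rose 2.65-fold (log2 1.41 ± 0.18, limma adjusted p = 8.89e-06). Of the 8 heme genes 3 were higher and 3 lower with E. coli, against 5.05% and 5.25% of all genes, and 2 were higher and 2 lower with both, against 14.7% and 17.2%. Cd163 is among the lower genes each time, again without reading its call as a test.

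Cd163, the receptor that clears haemoglobin bound to haptoglobin and a marker of macrophages, had counts of 45.5, 72.3 and 40.0 with ACs, 14.2, 4.91 and 6.16 with E. coli, 7.91, 9.17 and 0.00 with IFN-γ, and 0.00, 1.22 and 1.38 with both. The 3 stimulated groups lay below ACs without overlap. Since it passed the filter on low values only through the ACs group, where it was high, these values are a description with no test. The summed macrophage markers were also below ACs with E. coli and with both, but above ACs with IFN-γ alone. Among those markers Vsig4, at 304 to 391 with IFN-γ and 473 to 655 with ACs, and Mrc1, at 5.28 to 32.1 and 94.6 to 134, were below ACs with IFN-γ, while the abundant C1qc and Lyz2 were above. Their part in the Cd163 values was not tested.

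Among the sensors and handlers of ferritin, Fbxl5, whose product senses iron and marks an iron regulatory protein for degradation, went from 2185, 2448 and 2129 with ACs to 10266, 9103 and 11047 with both stimuli, a 4.49-fold rise (log2 2.17 ± 0.11, limma adjusted p = 2.11e-11). Ncoa4, the receptor that delivers ferritin to the lysosome, fell to 0.528 with IFN-γ (log2 -0.92 ± 0.15, limma adjusted p = 0.000131), from 315, 289 and 307 to 170, 163 and 148. Of the 6 genes of that list, 1 rose with E. coli, against 5.05% of all genes. With IFN-γ 1 rose and 1 fell, against 11.4% and 9.96%, and with both 1 rose and 1 fell, against 14.7% and 17.2%.

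Hamp, the gene of the hormone hepcidin that removes ferroportin from the cell surface, was low throughout, at 4.88, 0.94 and 0.00 with ACs. It reached 13.4, 13.9 and 10.6 with E. coli and 28.5, 33.0 and 37.3 with both, without overlap with ACs. Since it passed the filter only through the group with both, these values are a description with no test. Bmp6, the ligand that drives hepcidin in the liver, was at 8.95, 3.75 and 0.82 with ACs, 15.1, 13.9 and 42.2 with E. coli and 32.8, 25.6 and 13.8 with both. Its means with ACs (4.51) and with IFN-γ (7.94) were under the minimum of the filter. Bmp6 therefore passed only through the groups with E. coli, and its values are also a description with no test. Such low counts leave the fold dependent on the pseudocount, and it is not given.

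Alas1, the first enzyme of heme synthesis outside red cells, rose 2.37-fold with E. coli (log2 1.25 ± 0.13, limma adjusted p = 2.09e-06). Epas1, which encodes a hypoxia-inducible factor, fell to 0.314 with E. coli (log2 -1.67 ± 0.33, limma adjusted p = 0.00175) and to 0.106 with both (log2 -3.24 ± 0.33, limma adjusted p = 2.87e-07). Hfe, the partner of the transferrin receptor named for hemochromatosis, fell to 0.450 with E. coli (log2 -1.15 ± 0.26, limma adjusted p = 0.00584). Slc22a17, a receptor for lipocalin 2, fell to 0.467 with IFN-γ (log2 -1.10 ± 0.35, limma adjusted p = 0.0263) and to 0.264 with both (log2 -1.92 ± 0.35, limma adjusted p = 0.00026).

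Of these other genes 1 passed with IL-4, Lcn2, the gene of lipocalin 2, which binds the iron carriers of bacteria. Its counts were 1641, 1801 and 1930 with ACs and 188, 180 and 272 with IL-4 + ACs, a fall to 0.118 (log2 -3.09 ± 0.18, limma adjusted p = 9.56e-05), with the ranges apart. The summed neutrophil markers were also lower with IL-4 + ACs, with the ranges apart. Among them S100a8 was below ACs (10.28 to 20.55 against 28.57 to 58.98). S100a9 overlapped with ACs (21.6 to 33.6 against 10.72 to 31.14), and the rest did not pass 12.03 in either group. The part of neutrophils in the fall of Lcn2 was not tested. In the Type 1 experiment Lcn2 changed by 1.13 ± 0.19 with E. coli (limma adjusted p = 0.000379) and by -0.06 ± 0.19 with both stimuli.

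**Figure D5:**
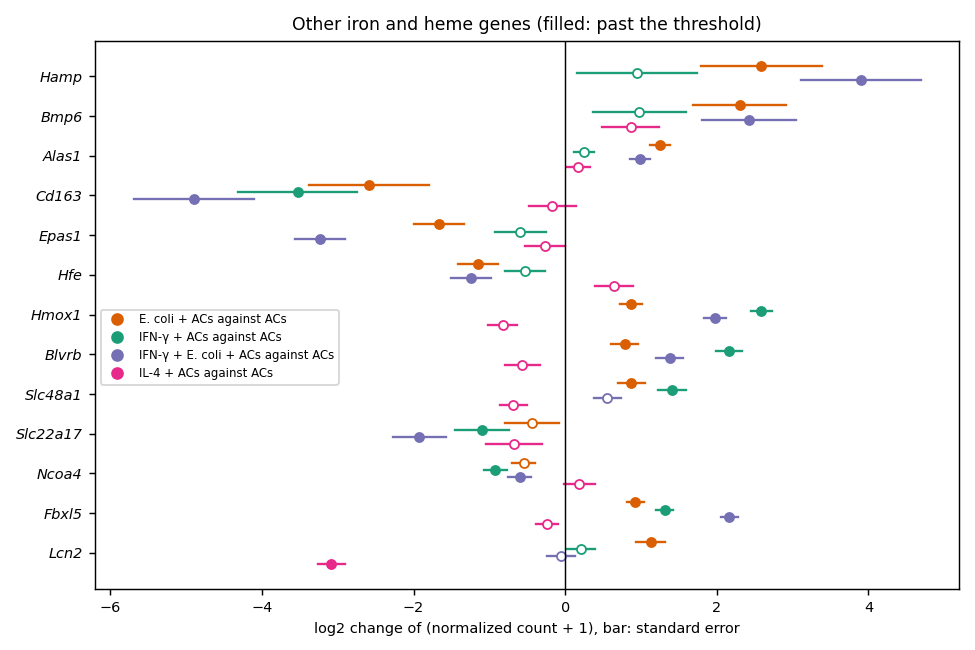
Log2 change against ACs (x axis), with bars for the standard error, of the 13 other iron and heme genes named by the rule, with 1 colour per stimulus and filled points past the threshold. Hmox1, Blvrb and Fbxl5 lie above 0 with each Type 1 stimulus, and Lcn2 is the point past the threshold with IL-4. In the Type 1 experiment Cd163, Hamp and Bmp6 passed the filter on low values only through groups where they were high. Their Type 1 points are shown without reading a test, also where filled.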

How the data were processed

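CEL-Seq2 RNA sequencing was analysed in 18 libraries, 3 per group, grouped by GEO's labels. The authors deposited 1 table with a signal per gene and library: a read count scaled by the library's DESeq2 size factor. The submitters' processing notes name FastQC 0.11.5, Trim Galore, cutadapt 1.10, TopHat2 2.1.0, Bowtie2 2.2.6, HTSeq 0.6.1, DESeq2 1.26.0 and GRCm38. The methods describe a second pipeline as well, and which made the table is not given in the sources used here. In every library 100.0% of the values were whole multiples of 1 step (tolerance 0.1 read), so whole reads were recovered. Every column was used. Identifiers were matched to symbols for 54409 of 54446 genes, and Hjv was not matched under that symbol. Depth ranged from 779421 to 7782072 reads, and 3 reads, below which a level cannot be told from 0, stand for up to 16.1 normalized counts. Between replicates the chi-square per degree of freedom of the recovered reads was 4.19 to 14.7, so no 2 libraries were the same.

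Limma 3.58.1 (lmFit, eBayes with trend) in R 4.3.3 was run on log2(normalized count + 1) for genes with a mean of at least 10, on the 12 Type 1 libraries, the 6 IL-4 libraries, the 6 ACs libraries or, for the difference between experiments, all 18. Calls needed a Benjamini-Hochberg adjusted p under 0.05 over all genes tested and at least 1.5-fold. The table could also be fitted as counts, with edgeR 4.0.16 and DESeq2 1.42.0 as alternatives on the recovered reads. Other alternatives were a pseudocount of 5, no filter, a minimum mean of 50, a block for the replicate number, an upper-quartile rescaling, array weights, all 18 libraries in 1 fit, no fold threshold and each library left out. Named are the 7 genes, in each comparison against ACs the other iron genes past the threshold with the 3 largest rises and 3 largest falls, and for each member the 2 most alike genes. The members and lists were chosen with earlier results of these data known. The labels pair no libraries across groups beyond a shared replicate number. On simulated data with 200 genes changed 4-fold, limma recovered 98% for both stimuli against ACs (10142 genes, 10 false calls) and 96.5% for IL-4 (10650 genes, 3 false). It recovered 87% for the interaction (10155 genes, 3 false) and 86.5% for the difference between the IL-4 and the IFN-γ + E. coli changes (10390 genes, 7 false). Every simulated gene had the same dispersion of 0.05, and the changes of the members with IL-4 were smaller than 4-fold. These shares therefore do not tell how often such smaller changes would be found. Python 3.11.15, numpy 2.4.6, pandas 2.3.3 and matplotlib 3.10.9 were used for tables and plots.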

Additional observations from a re-analysis of the deposited data

Results flagged for a closer look

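The interaction of IFN-γ and E. coli differed from 0 for Fth1 (-1.43), Ftl1 (-1.21), Slc11a1 (-0.94) and Slc11a2 (-1.53), all in log2 and all past the threshold, which means that the effect of 1 stimulus differed with the other present. With all 18 libraries in 1 fit it was lost for Slc11a1 (limma adjusted p = 0.0541) and Slc11a2 (0.0714). The change with IL-4 differed from the change with IFN-γ + E. coli for Fth1 (-1.73), Tfrc (-3.27) and Slc11a1 (-2.33), and here the experiment cannot be told apart from the stimulus.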

How the results depend on the processing

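Of the 9 counts of genes past the threshold, those against ACs in the Type 1 experiment stayed within 1.5 times the count given under every alternative, and no called change of a member was reversed. Adding E. coli to IFN-γ gave 1 gene in place of 2 with no filter, with the upper quartile, with array weights and with all 18 libraries, and leaving out single libraries gave 0 to 2. IL-4 gave 3 genes in place of 0 with array weights (Fth1 -0.67, Slc11a1 -0.69, Cp -0.63) and 2 without both shallow libraries, an alternative chosen after seeing the data, and 0 to 1 when single libraries were left out. The interaction gave 2 genes in place of 4 with all 18 libraries, where Slc11a1 (limma adjusted p = 0.0541) and Slc11a2 (0.0714) were lost, and 3 to 4 by library. With no filter Slc11a2 was lost there too (0.0504). Leaving out single libraries gave 3 to 4 genes with E. coli, 4 to 5 with IFN-γ, 3 to 4 with both and 2 to 4 for IFN-γ added to E. coli. It gave 3 to 3 for the ACs baselines and 3 to 5 for the difference between the IL-4 and the IFN-γ + E. coli changes. The cause was not tested. With all 18 libraries in 1 fit the Slc11a2 calls with E. coli (limma adjusted p = 0.0518) and IFN-γ (0.0571) and the Slc40a1 call for IFN-γ added to E. coli (0.121) were lost, and that Slc40a1 change was 0.57 with the upper quartile, under the fold. The upper quartile moved the median of all genes with both stimuli from -0.05 to -0.18 and the calls from 1494 higher and 1746 lower to 1155 and 2200. With IFN-γ the calls went from 1160 higher and 1013 lower to 966 and 1247. Over all genes with IL-4, 79 higher and 37 lower calls became 389 and 356 with array weights, 345 and 311 without both shallow libraries, 125 and 83 with no filter, 127 and 85 with edgeR, 128 and 81 with DESeq2, 116 and 105 with all 18 libraries, and 45 and 29 with the replicate block. For the interaction, 321 higher and 435 lower became 214 and 281 with all 18 libraries. Residuals of libraries with the same replicate number correlated between -0.089 and 0.085 in the Type 1 experiment and 0.001 and 0.021 in the IL-4 experiment. For libraries with different numbers it was -0.084 to 0.07 and -0.054 to 0.059. No pairing by number was seen, though such correlations cannot exclude it. The replicate block gave 4 genes with E. coli, 5 with IFN-γ, 3 with both, 0 with IL-4 and 4 for the interaction, and it changed no other call. A mean of at least 50 gave no value for Slc40a1 with IL-4. Depth limits the IL-4 experiment most, where Slc40a1 rests on 4 reads in 1 library.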
